A study of Homo sapiens with 16 samples.

Results

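Cells of U-251 MG, an established human glioblastoma line, were given irinotecan and simvastatin together (the combination) or simvastatin alone, and their poly(A) RNA was sequenced. The transcriptomes of these groups were compared here, which asks what irinotecan adds in cells that already receive the statin. The comparison used 8 of the 16 libraries of the series, 4 of the combination and 4 of simvastatin, chosen by their treatment labels and count columns alone. The combination held simvastatin at 0.06 µM and irinotecan at 0.6 µM, and the simvastatin group held simvastatin at 0.06 µM. Drugs were added 24 h after seeding and stayed for 48 h, and all cells grew in high-glucose DMEM with serum. The other 8 libraries, 4 of irinotecan alone at 0.6 µM and 4 of the DMSO vehicle, served to set the same addition without the statin beside it. Whether libraries within a group stem from separate cultures is not in the labels, so p-values measure the spread between libraries, which may be technical, in 1 line grown in culture.

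Irinotecan is a prodrug. Carboxylesterases turn it into a metabolite that traps topoisomerase I on DNA, and forks that run into the trapped enzyme leave breaks, which call on checkpoint kinases, p53 and homologous recombination. Simvastatin blocks the mevalonate pathway, through which cells make cholesterol, and cells short of sterols answer through the transcription factor SREBP2, which raises the genes of that pathway. The series' title places the joint action of the drugs on TGF-β, a cytokine that signals through SMAD proteins and shapes matrix and invasion in glioblastoma.

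Totals were 24159673 to 27502415 counts per library in the combination and 24669799 to 29756711 in simvastatin. Mitochondrially encoded genes took 2.37% to 3.40% of counts in the combination and 2.56% to 4.22% in simvastatin, which overlap. The 50 genes with most counts took 11.97% to 12.51% in the combination and 12.81% to 14.44% in simvastatin, and the TMM scaling factors (edgeR's correction for composition) were 1.009 to 1.022 in the combination and 0.9774 to 0.9834 in simvastatin. The last pair of measures did not overlap between the groups, and other scalings were therefore among the alternatives tried. The first principal component of the 8 libraries held 38.1% of the variance and separated the groups. Most markers of astrocytes and glioma cells were expressed, but AQP4 and ALDH1L1 stayed under 1 count per 1000000 in all 8 libraries. Summed markers of neurons, oligodendrocytes, epithelium and fibroblasts were present too, as given below. CD3D, CD3E and CD2 of T cells, MAG of oligodendrocytes and AIF1 of microglia had 0 counts in all 8 libraries.

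Adding irinotecan changed many transcripts, mostly by little. Of 16647 genes tested with edgeR, 4259 (25.6%) were called at an adjusted p under 0.05, 2306 higher in the combination (13.9%) and 1953 lower (11.7%). These shares are the background for the list counts below. They depend on the kind of gene, at 16.7% higher and 12.9% lower among the 13390 protein-coding genes. Among 1499 genes with 1 exon, whose median level was lower, they were 2.27% and 6.94%. The background was not matched to the lists by level or gene type. The median absolute log2 fold change of the called genes was 0.27, and at least 2-fold changes numbered 166 upward and 93 downward. With a required fold of over 1.2 the calls were 728, of which 487 were higher and 241 lower. Scaling by library sizes alone moved the split to 3525 higher and 1278 lower, since it shifted the median log2 fold change of all genes to 0.048 (-0.0043 with TMM). The libraries of the groups did not overlap in 2293 genes higher (13.8%) and 2008 lower (12.1%) in the combination. The strand setting behind the counts was not stated, and of the genes given with values per library, CDKN1A, CEMIP, DDIT4, GFAP, HMGCS1, LIF, NGFR, PMEPA1, TGFB1, TOP1 and VEGFA have exons of another gene on the opposite strand, whose reads cannot then be told apart. In bulk RNA, fewer cells of a kind and less RNA per cell cannot be told apart.

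Among the 12 highest fold changes most genes had few counts. CEMIP, which drives the breakdown of hyaluronan in the matrix, was an exception, with 172, 166, 151 and 164 CPM (counts per 1000000 of the scaled library) in the combination against 55.0, 56.9, 70.7 and 55.4 CPM in simvastatin. All 4 combination libraries lay far above all 4 simvastatin libraries, with a log2 fold change of 1.45 ± 0.07 (SE, here and below; adjusted p = 4.69e-11; ENSG00000103888, chromosome 15, 80779343 to 80951776, plus strand, GRCh38). NGFR, the low-affinity receptor of neurotrophins, had 13.5, 13.5, 13.5 and 13.0 CPM in the combination against 4.77, 5.78, 5.71 and 5.56 CPM in simvastatin. These groups did not overlap either, with a log2 fold change of 1.29 ± 0.08 (adjusted p = 5.15e-13). The water and glycerol channel gene AQP3 (1.70), the lipase gene LIPH (1.68), SMPDL3B (1.61), which encodes a relative of sphingomyelinases, the kinase gene WNK2 (1.52), the BMP ligand gene GDF6 (1.44), the adhesion protein gene SVEP1 (1.43) and DUSP2 (1.22), a phosphatase for MAP kinases, rose as well, at 0.568 to 6.39 CPM over the 8 libraries.

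The 12 lowest fold changes included those of secreted factors and of genes for neuronal wiring. LIF, a cytokine that keeps mouse embryonic stem cells undifferentiated, had 74.0, 71.9, 68.4 and 79.1 CPM in the combination against 183, 184, 157 and 167 CPM in simvastatin. No combination library came near the simvastatin libraries, and the log2 fold change was -1.24 ± 0.06 (adjusted p = 4.73e-14; ENSG00000128342, chromosome 22, 30240447 to 30246851, minus strand). APLN, which encodes the vessel-forming peptide apelin, fell by a log2 of 1.30, and PAPPA, a protease that frees insulin-like growth factors from a binding protein, fell by 1.06. The semaphorin gene SEMA5B (-1.37 ± 0.14), the plexin gene PLXNA4 (-1.06 ± 0.10), the contactin gene CNTN2 (-1.21) and the potassium channel partner gene KCNIP1 (-1.28) fell as well. So did the transcription factor genes ZNF423 (-1.19) and RORA (-1.12), the endocytic receptor gene LRP2 (-1.11), the kinase gene NIM1K (-1.05) and the DNA helicase gene PIF1 (-1.10 ± 0.12).

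**Figure D1:**
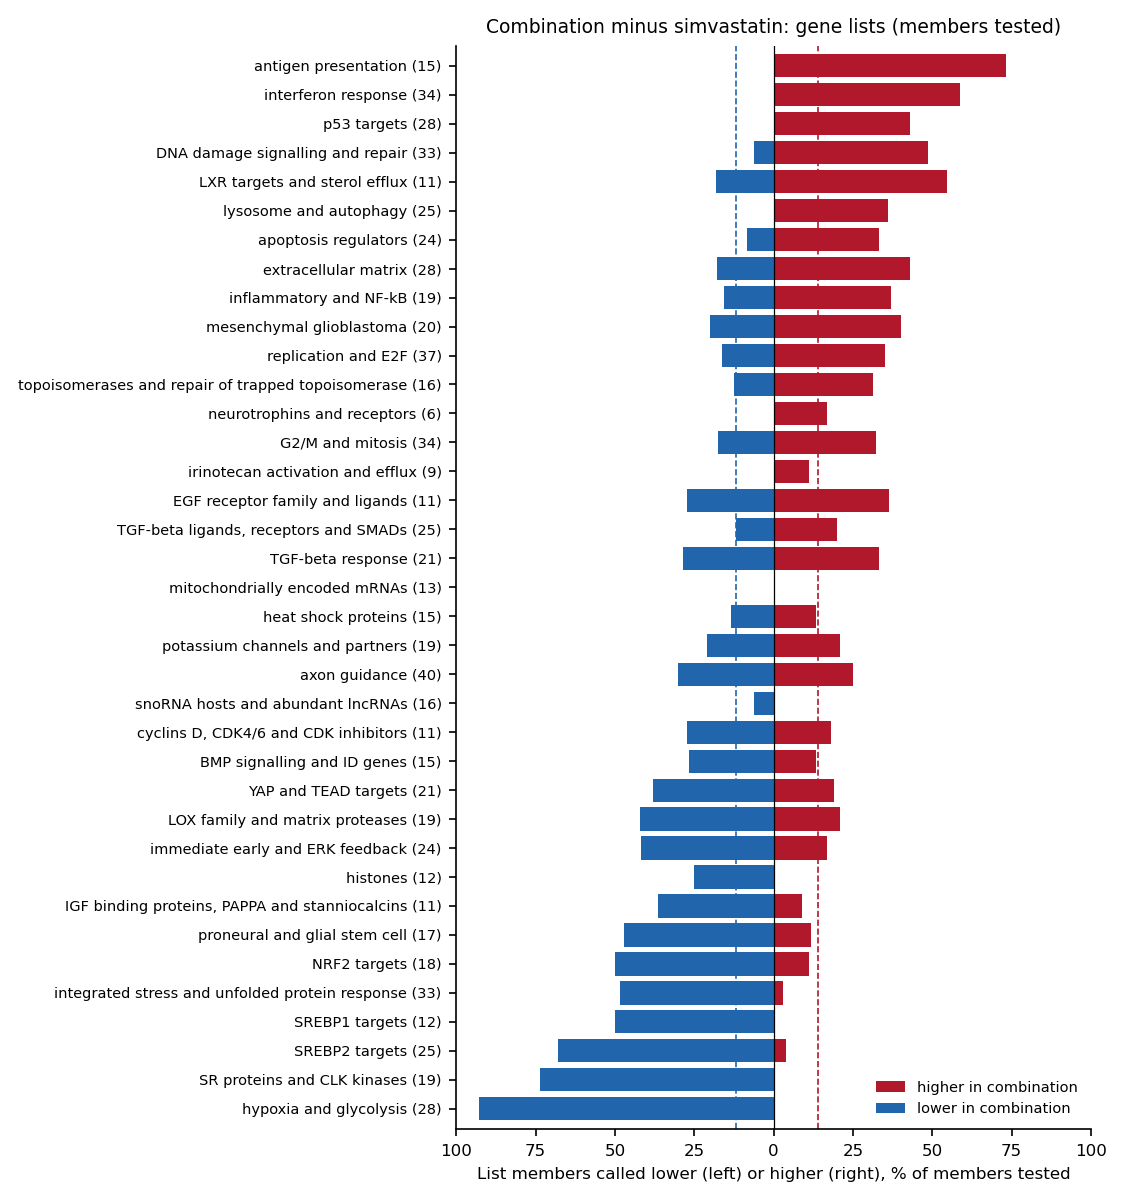
For each of 37 gene lists, bars give the share of tested members called lower (left) and higher (right) in the combination than in simvastatin, with the number tested in parentheses and dashed lines at the shares over all genes tested (11.7% lower, 13.9% higher). Hypoxia and glycolysis (26 of 28 lower) and antigen presentation (11 of 15 higher) stand at the ends.

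The drug's target and the genes that respond to its lesion moved by modest amounts. TOP1, which encodes topoisomerase I, had 201, 198, 203 and 188 CPM in the combination against 176, 173, 186 and 193 CPM in simvastatin. The lowest combination library fell within the simvastatin range, and the log2 fold change was 0.12 ± 0.04 (adjusted p = 0.0236; ENSG00000198900, chromosome 20, 41028818 to 41124487, plus strand). It was not called without combination replicate 1 (0.11, adjusted p = 0.0655) or 3 (0.10, adjusted p = 0.0746) or simvastatin replicate 1 (0.10, adjusted p = 0.0952) or 2 (0.09, adjusted p = 0.106). Of 16 topoisomerase genes and genes that repair trapped topoisomerase, 5 rose and 2 fell, where 13.9% of all genes rose and 11.7% fell. The number that rose was 0 without simvastatin replicate 1, 1 without simvastatin replicate 2, 3 without simvastatin replicate 3, and 2 without combination replicate 1 or 4. MUS81 (-0.27 ± 0.06), a nuclease subunit for stalled forks, was among the 2 that fell. Of 9 tested genes that activate irinotecan or carry it out of cells, ABCB1, an efflux pump, was called, at 0.242 to 1.23 CPM over the 8 libraries (1.03 ± 0.37, adjusted p = 0.0401). That call was lost without combination replicate 3 or 4 or simvastatin replicate 1, 2 or 4, with log2 fold changes of 0.69 to 1.13 and adjusted p of 0.0514 to 0.233.

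U-251 MG is known to carry a mutant p53. Of 28 p53 targets tested, 12 rose and 0 fell, with a median log2 fold change of 0.11 against -0.0043 over all genes. CDKN1A, the p53-induced inhibitor of cyclin-dependent kinases, had 95.4, 84.1, 88.0 and 87.9 CPM in the combination against 58.6, 59.7, 60.8 and 63.9 CPM in simvastatin. The groups were well apart, with a log2 fold change of 0.55 ± 0.04 (adjusted p = 2.89e-11; ENSG00000124762, chromosome 6, 36676460 to 36687339, plus strand). The death receptor gene FAS (0.68 ± 0.14), the stress cytokine gene GDF15 (0.73 ± 0.09), TP53INP1 (0.36 ± 0.07) and PMAIP1 (0.25 ± 0.04), which encodes the apoptosis protein NOXA, rose as well. MDM2, the p53 ubiquitin ligase, was not called (-0.03 ± 0.04, adjusted p = 0.654). Of 24 apoptosis regulators, 8 rose, or 5 without simvastatin replicate 1, and 2 fell, or 0 to 1 without any 1 of combination replicates 1 to 3 or simvastatin replicates 1 to 3, or with library sizes alone. BIK (0.92 ± 0.18), a promoter of apoptosis, and TNFSF10 (0.62 ± 0.10), the ligand TRAIL, led them.

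Repair genes rose more often than not among those called. Of 33 genes of DNA damage signalling and repair, 16 rose and 2 fell (1 without combination replicate 1, 3 or 4 or simvastatin replicate 1 or 2), with a median of 0.12. EXO1, the exonuclease that resects DNA ends, had 58.0, 57.4, 58.4 and 59.2 CPM in the combination against 40.8, 41.6, 41.9 and 42.6 CPM in simvastatin. Every combination library lay above every simvastatin library, with a log2 fold change of 0.48 ± 0.04 (adjusted p = 1.54e-10; ENSG00000174371, chromosome 1, 241847967 to 241895148, plus strand). The repair polymerase gene POLQ (0.42 ± 0.05), the helicase gene BLM (0.40 ± 0.04), the checkpoint kinase gene CHEK2 (0.33 ± 0.08), FANCI (0.31 ± 0.04) and FANCD2 (0.29 ± 0.05) rose too. LIG3, a ligase of single-strand break repair, was the most lowered member (-0.43 ± 0.06). Transcripts of the checkpoint kinases ATM (0.06) and ATR (0.07) were not called.

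Genes of DNA replication moved in both directions. In a list of E2F targets and replication factors, 13 of 37 rose and 6 fell. MCM6, a subunit of the replicative helicase, had 120.4, 119, 123 and 121 CPM in the combination against 168, 165, 176 and 170.5 CPM in simvastatin. The groups did not overlap, with a log2 fold change of -0.49 ± 0.03 (adjusted p = 2.32e-12; ENSG00000076003, chromosome 2, 135839626 to 135876426, minus strand). MCM5, of the same helicase (-0.43 ± 0.03), DUT (-0.37 ± 0.03), which keeps uracil out of DNA, the helicase accessory gene GINS2 (-0.24), E2F1 (-0.20) and the sliding clamp PCNA (-0.19) fell. Higher were the licensing factor gene CDT1 (0.43 ± 0.05), the clamp loader gene RFC3 (0.37 ± 0.04), GINS4 (0.34) and RRM2 (0.33 ± 0.03), the subunit of ribonucleotide reductase made in S phase, with 20.2% of its exonic bases shared with another gene on its strand. MCM2 (-0.07) and MCM7 (-0.09), of the same helicase as MCM6, were not called.

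The mitotic list was mixed as well, with 11 of 34 genes higher and 6 lower. CDK1, the mitotic kinase (0.31 ± 0.03), and FOXM1, a transcription factor of mitotic genes (0.24 ± 0.04), rose, whereas the kinesin gene CENPE (-0.33 ± 0.05) and the spindle gene DLGAP5 (-0.23 ± 0.03) fell. MKI67, the proliferation marker Ki-67, was not called, at 0.01 ± 0.10 (adjusted p = 0.962). Of 11 genes of D cyclins and their partners, CCND3 (0.20 ± 0.05) and RBL1 (0.22 ± 0.05) rose, while CCNG2 (-0.30 ± 0.05) was among the 3 that fell, or 1 without combination replicate 1 or simvastatin replicate 1, 3 or 4, or with library sizes alone. H1F0, a linker histone gene that is polyadenylated and not tied to S phase, had 186, 184, 180.1 and 186 CPM in the combination against 309, 312, 335 and 317 CPM in simvastatin. Its groups were far apart, and its log2 fold change was -0.79 ± 0.04 (adjusted p = 1.84e-15).

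Hypoxia and glycolysis genes fell as a group. Cells make these enzymes under the transcription factor HIF when oxygen is short, and glioblastoma cells use glycolysis heavily. Of 28 genes tested, 26 fell and 0 rose, with a median of -0.43, and summed over the list they took 1.61% to 1.75% of counts in the combination against 2.23% to 2.32% in simvastatin. PGK1, phosphoglycerate kinase, had 3028, 2809.5, 2875 and 2951 CPM in the combination against 4335, 4344, 4395 and 4462 CPM in simvastatin. The groups stood wide apart, with a log2 fold change of -0.59 ± 0.03 (adjusted p = 1.02e-13; ENSG00000102144, chromosome X, 77910739 to 78129296, plus strand). BNIP3, a receptor for the removal of mitochondria, had 526, 474, 494 and 514 CPM in the combination against 775, 778, 763 and 808 CPM in simvastatin. It too did not overlap, with a log2 fold change of -0.64 ± 0.04 (adjusted p = 8.75e-13; ENSG00000176171, chromosome 10, 131966455 to 131982013, minus strand).

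VEGFA, the vascular growth factor, had 320.0, 306, 313 and 359.7 CPM in the combination against 633, 697, 621 and 589.9 CPM in simvastatin. The highest combination library was still far below the lowest simvastatin library, and the log2 fold change was -0.97 ± 0.06 (adjusted p = 1.25e-09; ENSG00000112715, chromosome 6, 43770184 to 43786487, plus strand). The peptide hormone gene ADM (-0.87 ± 0.06), CA9 (-1.04 ± 0.09), a carbonic anhydrase at the cell surface, NDRG1 (-0.85 ± 0.16) and the bifunctional glycolysis regulator PFKFB4 (-0.73 ± 0.05) fell most. Genes of glycolysis from glucose entry to pyruvate fell too, among them SLC2A1 (-0.43), the glucose carrier, HK2 (-0.41), PFKP (-0.46), ALDOA (-0.32), TPI1 (-0.34), GAPDH (-0.41), PGAM1 (-0.28), ENO1 (-0.56) and PKM (-0.31), with 42.3% of the exonic bases of ALDOA shared with another gene on its strand. LDHA, lactate dehydrogenase, was not called (0.08 ± 0.06, adjusted p = 0.343), nor was ANKRD37 (-0.37, adjusted p = 0.156). LDHA has processed pseudogenes, and the part of pseudogenes in the values of this or other genes of the list was not tested. In CPM, which takes no account of gene length, the largest differences of all called genes were those of ENO1, ACTB (-0.20), PKM, PGK1, GAPDH and the desaturase gene SCD, all lower in the combination.

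Promoter windows of PGK1 and BNIP3, the members shown with their values above, hold the core letters of the hypoxia response element. Each window is the 250 bases upstream of the RefSeq start (GRCh38.p14), kept up to the first GENCODE exon that begins inside it, chrX:78103998-78104173 on the plus strand and chr10:131982014-131982173 on the minus strand, 5′ to 3′, with each ACGTG or GCGTG, on either strand, in capitals and adjoining matches run together.
PGK1: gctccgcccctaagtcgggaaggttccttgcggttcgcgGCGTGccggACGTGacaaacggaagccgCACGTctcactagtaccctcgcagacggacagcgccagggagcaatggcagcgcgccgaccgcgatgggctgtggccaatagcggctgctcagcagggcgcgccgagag
BNIP3: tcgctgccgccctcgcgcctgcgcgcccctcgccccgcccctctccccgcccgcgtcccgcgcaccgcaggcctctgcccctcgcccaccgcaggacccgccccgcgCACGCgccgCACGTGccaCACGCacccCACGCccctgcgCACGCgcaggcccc
Over the full 250 bases, not cut at an exon, 17 of 24 list promoters found (70.8%) held ACGTG or GCGTG, against 43.1% of all 27305 promoters. A match of so short a motif is a description of the letters.

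Most genes of sterol synthesis, which a statin tends to raise, were lower with irinotecan. Of 25 SREBP2 targets, 17 fell and 1 rose, with a median of -0.26. HMGCS1, an early enzyme of the mevalonate pathway, had 103, 102, 103 and 113 CPM in the combination against 162, 174, 193 and 167 CPM in simvastatin. The groups did not overlap, with a log2 fold change of -0.73 ± 0.05 (adjusted p = 3.49e-12; ENSG00000112972, chromosome 5, 43289395 to 43313512, minus strand). In DMSO it averaged 131 ± 8.17 CPM (SD, n = 4), between the combination and simvastatin. Enzymes further along, MSMO1 (-0.50 ± 0.04), SQLE (-0.41 ± 0.04) and FDFT1 (-0.34 ± 0.04) fell as well. So did the sensor gene INSIG1 (-0.48 ± 0.04) and SREBF2 itself (-0.30 ± 0.04). TM7SF2, a sterol reductase, was the 1 gene that rose (0.31 ± 0.07).

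Fatty acid genes under SREBP1 followed in part, with 6 of 12 lower and 0 higher, or 4 lower and 3 higher with library sizes alone. SCD, the desaturase that makes monounsaturated fatty acids, had 1638, 1563, 1577 and 1575 CPM in the combination against 2382, 2390.3, 2657 and 2417 CPM in simvastatin. The groups were far apart, with a log2 fold change of -0.63 ± 0.04 (adjusted p = 4.05e-14; ENSG00000099194, chromosome 10, 100347124 to 100364834, plus strand). The desaturase genes FADS1 (-0.43 ± 0.04) and FADS2 (-0.31 ± 0.04), which overlap on opposite strands, and the elongase gene ELOVL6 (-0.23 ± 0.03) fell, and ACLY (0.08) and ACACA (-0.14), which open fatty acid synthesis, were not called, though ACLY was called higher with library sizes alone. Genes that carry sterol out of cells under the receptor LXR went the other way, with 6 of 11 higher and 2 lower. ABCA1, the main cholesterol exporter, had 14.9, 16.4, 18.1 and 17.1 CPM in the combination against 11.4, 9.74, 12.0 and 11.7 CPM in simvastatin. It did not overlap and rose by a log2 of 0.56 ± 0.08, beside APOE (0.84 ± 0.17) and ABCG1 (1.44 ± 0.34) at lower levels.

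Most interferon-stimulated genes and genes of antigen display rose. Interferons induce the first through STAT and IRF factors, and the second load peptides on HLA class I. Of 34 interferon response genes, 20 rose and 0 fell, with a median of 0.33. IFIT3, which binds antiviral signalling proteins, had 13.1, 15.0, 16.7 and 16.7 CPM in the combination against 9.61, 8.13, 8.26 and 8.83 CPM in simvastatin. The groups did not overlap, with a log2 fold change of 0.82 ± 0.11 (adjusted p = 2.06e-06; ENSG00000119917, chromosome 10, 89327894 to 89340971, plus strand). IFI44, another interferon-induced gene, had 71.6, 75.1, 72.5 and 73.2 CPM in the combination against 55.9, 59.3, 50.3 and 56.6 CPM in simvastatin. It was higher in every combination library, with a log2 fold change of 0.40 ± 0.05 (adjusted p = 1.25e-06; ENSG00000137965, chromosome 1, 78649796 to 78664078, plus strand).

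The antiviral sensor genes DDX58 (0.43 ± 0.07) and IFIH1 (0.24 ± 0.05), MX1 (0.41 ± 0.10), ISG15 (0.31 ± 0.07) and the transcription factor gene IRF1 (0.35 ± 0.08) rose as well. IRF7 (-0.25), which drives interferon transcription, and EIF2AK2 (0.13), a kinase activated by RNA, were not called. IFITM1 (0.88), IFITM2 (1.06) and IFITM3 (0.37), related neighbours on chromosome 11 that block viral entry, share sequence, so their separate values are uncertain. IFITM1 also shares 32.5% of its exonic bases with IFITM2 on its strand, and IFITM2 shares 22.7% with IFITM1. Of 15 genes of antigen presentation, 11 rose and 0 fell. B2M, the invariant chain of HLA class I, had 1523, 1494, 1617 and 1508 CPM in the combination against 1232, 1235, 1189 and 1258 CPM in simvastatin. The groups did not overlap, with a log2 fold change of 0.32 ± 0.03 (adjusted p = 6.74e-09; ENSG00000166710, chromosome 15, 44711487 to 44718877, plus strand). HLA-B (0.36), HLA-E (0.36) and HLA-F (0.72), which share sequence, the peptide transporter gene TAP2 (0.45) and NLRC5 (0.41), their transcriptional activator, were higher, with 32.3% of the exonic bases of TAP2 shared with another gene on its strand.

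The promoters of IFIT3 and IFI44, whose values stand above, hold the core of the interferon-stimulated response element, the letters GAAA, 2 free bases and GAAA again. They are shown in the same way, for chr10:89327747-89327893 and chr1:78649539-78649788, both on the plus strand, with each match on either strand in capitals.
IFIT3: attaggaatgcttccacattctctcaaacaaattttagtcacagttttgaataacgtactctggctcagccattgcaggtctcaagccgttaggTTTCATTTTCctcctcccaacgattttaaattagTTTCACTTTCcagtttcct
IFI44: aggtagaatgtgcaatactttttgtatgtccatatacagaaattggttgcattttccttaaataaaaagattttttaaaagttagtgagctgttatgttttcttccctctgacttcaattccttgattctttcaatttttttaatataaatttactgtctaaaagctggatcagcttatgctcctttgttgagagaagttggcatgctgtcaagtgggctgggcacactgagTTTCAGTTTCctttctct
Of 26 list promoters found, 15 (57.7%) held this core on either strand, against 3.07% of all 27305 promoters. Since the list was made of known interferon genes, this describes the list and not the drug.

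Inflammatory genes under NF-κB were divided, with 7 of 19 higher and 3 lower. The chemokine gene CXCL3 (1.18 ± 0.27), the adhesion receptor gene ICAM1 (0.79 ± 0.15) and the survival gene BIRC3 (0.61 ± 0.13) rose at low levels. LIF, given above, IL11 (-0.82 ± 0.08), a cytokine of the same family, and CCL2 (-0.18 ± 0.04) fell. Lysosomal genes rose in 9 of 25 with 0 lower, a count of 5 without combination replicate 1 or 4, and NEU1 (0.37 ± 0.04), a sialidase, was among them.

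Genes of the integrated stress response, which ATF4 turns on when amino acids run short or the endoplasmic reticulum is burdened, fell more often than they rose. Of 33 genes tested, 16 fell, 1 rose and 16 were not called, with a median of -0.13. DDIT4, a brake on the growth kinase mTORC1, had 54.7, 50.1, 51.0 and 55.5 CPM in the combination against 88.6, 87.6, 93.7 and 92.0 CPM in simvastatin. The groups stood apart, with a log2 fold change of -0.78 ± 0.06 (adjusted p = 7.36e-12; ENSG00000168209, chromosome 10, 72273920 to 72276036, plus strand). ATF4 (-0.32 ± 0.04), the serine synthesis genes PHGDH (-0.34 ± 0.05) and PSAT1 (-0.32 ± 0.04), the amino acid carrier gene SLC7A5 (-0.47 ± 0.05), STC2 (-0.65 ± 0.05), the chaperone gene HSPA5 (-0.26 ± 0.04) and HERPUD1 (-0.25 ± 0.04), of endoplasmic reticulum degradation, fell. DDIT3 (0.19) and TRIB3 (0.08), which act later in the response, were not called. ASNS, asparagine synthetase, fell (-1.04 ± 0.27) at 0.613 to 2.06 CPM, but another gene on the same strand covers 44.6% of its exonic bases, so its counts are uncertain.

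Redox genes under NRF2 followed with 9 of 18 lower and 2 higher, or 1 higher when any of the 8 libraries other than combination replicate 4 and simvastatin replicate 1 was left out. The lowered ones included the transporter gene ABCC3 (-0.39 ± 0.04), the pentose phosphate gene TKT (-0.35 ± 0.04) and the cystine carrier gene SLC7A11 (-0.34 ± 0.06). HMOX1, which breaks down haem, rose (0.63 ± 0.09). Splicing regulators moved little but in 1 direction. Of 19 genes of SR proteins, their partners and CLK kinases, 14 fell and 0 rose, with a median of -0.18, and 9 fell when libraries were scaled by their sizes alone. CLK2 (-0.44 ± 0.08), a kinase of SR proteins, SRSF1 (-0.23 ± 0.04), SRSF3 (-0.21 ± 0.03) and HNRNPDL (-0.25 ± 0.03) were among them, but another gene on the same strand covers 56.6% of the exonic bases of SRSF1, so its counts are uncertain. Among 13 mRNAs of the mitochondrial genome, 0 were called, at a median of -0.22.

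**Figure D2:**
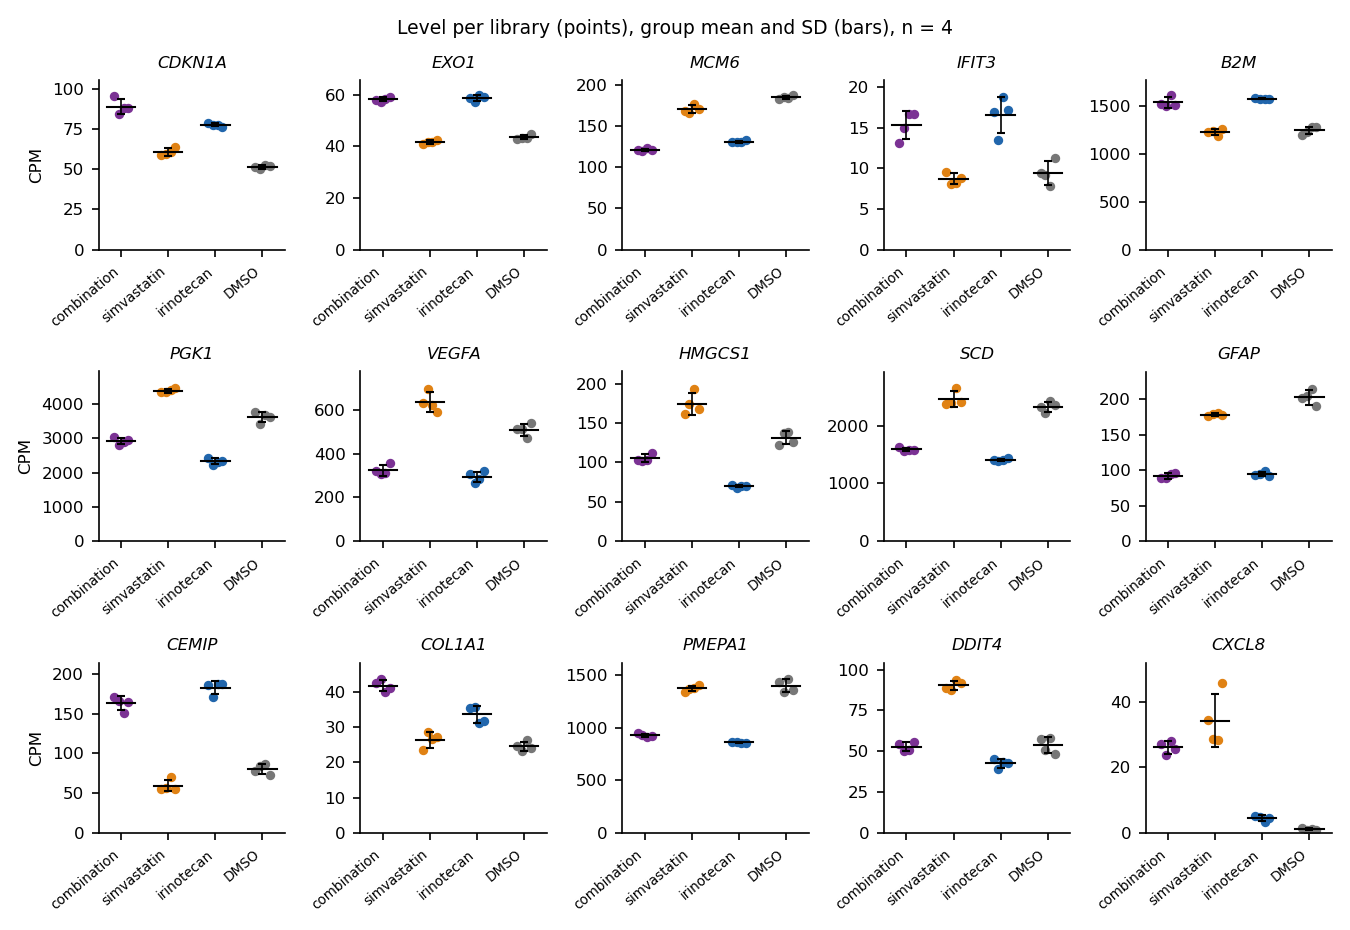
Level in CPM (vertical axes, from 0) of 15 genes in each library, by group (combination, simvastatin, irinotecan, DMSO); points are libraries, and bars give the mean and SD of 4. In CDKN1A, IFIT3, B2M and CEMIP all combination libraries lie above the simvastatin libraries, in PGK1, VEGFA, HMGCS1, SCD and GFAP all lie below, and CXCL8 is low without simvastatin.

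For TGF-β, which the series' title names, 8 of 25 ligand, receptor and SMAD genes tested were called, beside 25.6% of all genes. Of the 25, 5 rose (20%) and 3 fell (12%), near the shares of all genes (13.9% and 11.7%). TGFB1 had 139.6, 135, 126 and 131 CPM in the combination against 135, 135, 124 and 130.1 CPM in simvastatin. These values overlap, and neither TGFB1 (0.02 ± 0.04, adjusted p = 0.797) nor TGFB2 (-0.07 ± 0.07, adjusted p = 0.523), which shares 26.6% of its exonic bases with another gene on its strand, was called. TGFBR2, the receptor that binds ligand first, had 101, 99.8, 111 and 99.6 CPM in the combination against 84.6, 80.7, 88.4 and 85.1 CPM in simvastatin. It did not overlap and rose (0.28 ± 0.04, adjusted p = 6.55e-06; ENSG00000163513, chromosome 3, 30606502 to 30694142, plus strand), while TGFBR1, its signalling partner, was not called (-0.08 ± 0.05, adjusted p = 0.263). The co-receptor gene ENG (0.43 ± 0.11), ACVR1B (0.26 ± 0.06) and SMAD3 (0.13 ± 0.04) rose, and SMAD2 (-0.20 ± 0.05) and the inhibitory SMAD6 (-0.47 ± 0.06) fell. SMAD7, the other inhibitory SMAD, was higher in every combination library at 0.551 to 1.18 CPM over the 8 libraries but was not called (0.58 ± 0.28, adjusted p = 0.131). INHBA, the activin A chain, rose at 0.151 to 0.937 CPM (1.66 ± 0.34).

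Responders to TGF-β moved in both directions, with 7 of 21 higher and 6 lower (10 and 4 with library sizes alone) and a median of 0.04. PMEPA1, a feedback inhibitor of SMAD signalling, had 945, 932, 909 and 916 CPM in the combination against 1336, 1370.0, 1379.6 and 1403 CPM in simvastatin. The groups were far apart, with a log2 fold change of -0.57 ± 0.03 (adjusted p = 7.34e-14; ENSG00000124225, chromosome 20, 57648392 to 57711536, minus strand). COL1A1, a chain of type I collagen, had 42.5, 43.7, 39.9 and 41.3 CPM in the combination against 23.4, 28.7, 26.5 and 27.1 CPM in simvastatin. It moved upward without overlap, with a log2 fold change of 0.66 ± 0.06 (adjusted p = 7.15e-10; ENSG00000108821, chromosome 17, 50183289 to 50201632, minus strand). CTGF, a matricellular growth factor now named CCN2, fell (-0.22 ± 0.04), and FN1, fibronectin (0.43 ± 0.08), THBS1, which frees latent TGF-β (0.45 ± 0.04), TIMP3 (0.68 ± 0.08), SPHK1 (0.72 ± 0.11) and SNAI2 (0.45 ± 0.09) rose.

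In the matrix list 12 of 28 genes rose and 5 fell. Laminin genes LAMB1 (0.25 ± 0.04) and LAMC1 (0.21 ± 0.05), the basement membrane genes HSPG2 (0.73 ± 0.13) and NID2 (1.02 ± 0.19), and VCAN (0.38 ± 0.09), a brain proteoglycan, rose, and COL8A1 (-0.51 ± 0.04) and COL6A1 (-0.25 ± 0.04) fell. Among enzymes that work on the matrix 8 of 19 fell and 4 rose, or 6 and 5 with library sizes alone. LOX, which cross-links collagen (-0.78 ± 0.06), the gelatinase gene MMP2 (-0.31 ± 0.03), the urokinase gene PLAU (-0.34 ± 0.04) and its receptor gene PLAUR (-0.29 ± 0.05) fell, while the inhibitor gene TIMP2 (0.38 ± 0.03) rose beside CEMIP. Of 15 BMP and ID genes, BMP4 (1.04 ± 0.11) and its antagonist NOG (0.63 ± 0.06) rose, and ID1 (-0.46 ± 0.06) and ID3 (-0.24 ± 0.05) were among the 4 that fell, a number of 2 without simvastatin replicate 3 (3 rose and 3 fell with library sizes alone). YAP and TEAD targets fell in 8 of 21 and rose in 4, but 5 fell and 6 rose when libraries were scaled by their sizes alone, with AMOTL2 at -0.52 ± 0.04 and ANKRD1 at 0.62 ± 0.06.

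Growth factor receptors and early response genes changed as well. Of 24 immediate early and ERK feedback genes, 10 fell and 4 rose, with JUN, a subunit of AP-1, at -0.37 ± 0.04, PHLDA1 at -0.44 ± 0.04 and the ERK phosphatase gene DUSP4 at 0.65 ± 0.04. Of 11 genes of the EGF receptor family and its ligands, 4 rose and 3 fell. The receptor genes ERBB2 (0.35 ± 0.05) and ERBB3 (0.96 ± 0.15) and the ligand gene HBEGF (0.84 ± 0.10) rose, and the ligand genes NRG1 (-0.24 ± 0.05) and TGFA (-0.20 ± 0.04) and the receptor's feedback inhibitor ERRFI1 (-0.26 ± 0.04) fell. IGFBP4 (0.63 ± 0.06), which PAPPA cleaves, rose while PAPPA fell, and the stanniocalcin gene STC1 fell (-0.63 ± 0.04).

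GFAP and FABP7, genes of glial cells, were lower. GFAP, the intermediate filament of astrocytes, had 88.6, 88.8, 94.9 and 96.0 CPM in the combination against 177, 179, 180.0 and 177 CPM in simvastatin. The values within each group were tight and the groups did not overlap, with a log2 fold change of -0.95 ± 0.04 (adjusted p = 6.84e-17; ENSG00000131095, chromosome 17, 44903161 to 44916937, minus strand). FABP7, a fatty acid binding protein of radial glia, had 176, 175, 165 and 165 CPM in the combination against 269.6, 266, 263 and 272 CPM in simvastatin. It was lower in every combination library (-0.65 ± 0.04, adjusted p = 2.3e-14; ENSG00000164434, chromosome 6, 122779475 to 122784074, plus strand). In the list of proneural and stem cell factors, with 17 tested, 8 fell and 2 rose (1 without combination replicate 1, 3 or 4 or simvastatin replicate 1 or 4), with SOX2 at -0.22 ± 0.04, SOX9 at -0.35 ± 0.04 and POU3F2 at -0.24 ± 0.04. In the mesenchymal glioblastoma list 8 of 20 rose, or 5 without combination replicate 1 or 3 or simvastatin replicate 1 or 2. In that list 4 fell, or 2 without combination replicate 2, 3 or 4 or simvastatin replicate 1, 2 or 4, among them CD44 (-0.37 ± 0.03), the hyaluronan receptor, and ANXA2 (-0.30 ± 0.04).

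Summed marker lists moved beside these. Markers of astrocytes and glioma summed to 4186 to 4301 CPM in the combination against 5292 to 5353 CPM in simvastatin, with 4 of 6 tested markers lower. Neuron markers summed to 723 to 761 CPM in the combination against 978 to 1003 CPM in simvastatin. Epithelium markers summed to 513 to 587 CPM in the combination against 367 to 398 CPM in simvastatin. Fibroblast markers summed to 635 to 656 CPM in the combination against 540 to 551 CPM in simvastatin. Oligodendrocyte markers summed to 306 to 336 CPM in the combination and 283 to 287 CPM in simvastatin, and endothelium markers to 8.12 to 8.99 CPM in the combination and 5.71 to 7.22 CPM in simvastatin. Microglia markers summed to 1.21 to 2.48 CPM in the combination and 1.28 to 2.08 CPM in simvastatin, and T cell markers to 0.218 to 0.656 CPM and 0.334 to 0.591 CPM in these groups. The part of these shifts in the single results was not tested.

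Genes over 300 kb were lower more often than higher. Topoisomerase I is known to relieve the twist that builds up in transcribed DNA, and its inhibitors are known to act on long genes. Of 651 genes over 300 kb, 22.1% were lower and 10.8% higher in the combination, with a median of -0.06. Genes of 100 to 300 kb did not lean lower, with 12.0% lower and 17.8% higher. Of genes of 50 to 100 kb 9.54% were lower and 18.6% higher. The 4 genes over 300 kb with the smallest p were all lower. NTM, a neural adhesion gene of 966345 bases, had 78.0, 74.3, 72.9 and 79.7 CPM in the combination against 112, 106, 109 and 112 CPM in simvastatin. It did not overlap (-0.53 ± 0.04, adjusted p = 2.16e-11; ENSG00000182667, chromosome 11, 131370478 to 132336822, plus strand). ZNF423, a zinc finger factor gene of 370396 bases, had 9.35, 9.81, 9.19 and 8.23 CPM in the combination against 22.2, 21.8, 20.9 and 18.7 CPM in simvastatin. Its groups were apart too (-1.19 ± 0.09, adjusted p = 8.48e-11; ENSG00000102935, chromosome 16, 49487524 to 49857919, minus strand), and KIRREL3 (-0.63 ± 0.05) and LIMCH1 (-0.46 ± 0.04) were the others. Genes under 5 kb also leaned lower, with 9.97% lower and 4.33% higher, and among protein-coding genes of that length 17.4% were lower and 9.07% higher. Irinotecan alone against DMSO gave 30.4% lower and 7.68% higher over 300 kb, and 16.3% lower and 12.4% higher at 100 to 300 kb.

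**Figure D3:**
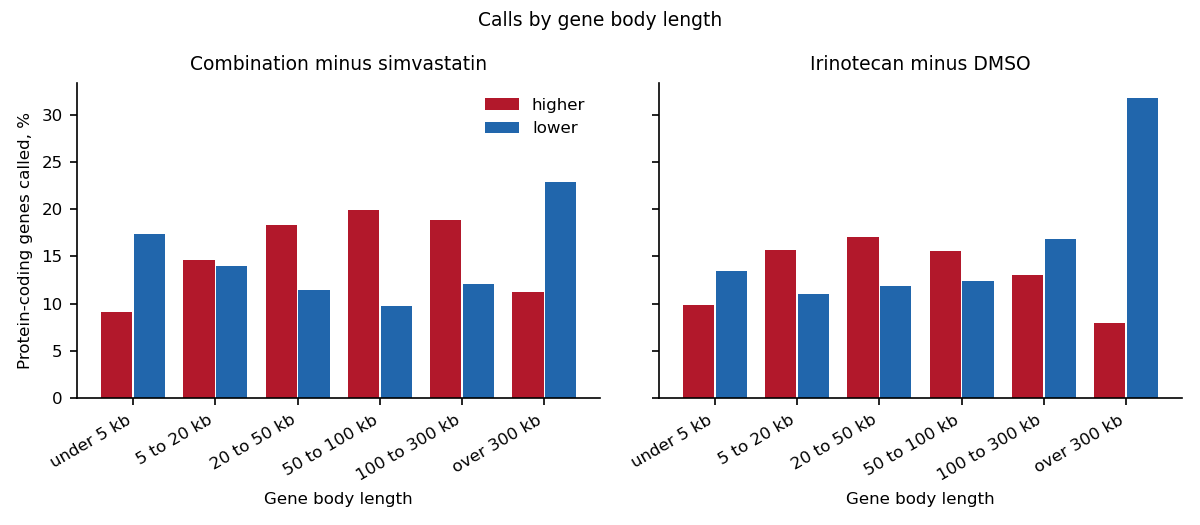
Share of protein-coding genes called higher and lower (vertical axis, %) by length of the gene body (horizontal axis), for the combination minus simvastatin (left) and irinotecan minus DMSO (right). In both panels genes over 300 kb are more often lower (22.9% and 31.8%) than higher (11.3% and 7.96%).

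The same addition without the statin gave a like response. Irinotecan against DMSO, which shares no library with the combination against simvastatin, called 4015 of 16647 genes (24.1%), 2064 higher and 1951 lower. Both comparisons called 2747 genes, which are 64.5% of the calls with simvastatin and 68.4% of those without, and all 2747 had the same sign. Of the 4259 genes called with simvastatin, 4135 (97.1%) had the same sign without it, and of the other 124, 0 were called there. The sign was also the same in 12697 of all 16647 genes (76.3%) and in 66.4% of those called in neither comparison. Of the 259 genes called with simvastatin at 2-fold or more, 236 (91.1%) had the same sign without it. Across the genes called in both, the fold changes with simvastatin had a slope of 0.945 on those without, with Pearson's r of 0.963 and Spearman's rho of 0.969, and these were chosen for passing in both. Across the genes called without simvastatin the slope was 0.75, and across all genes it was 0.667, with r of 0.637 and rho of 0.633. These are across genes, which are not independent replicates. The medians of 34 of the 37 lists had the same sign with and without simvastatin. Signs differed for the matrix list (0.09 with simvastatin, -0.02 without), replication and E2F (0.08, -0.0085) and the EGF receptor family (0.045, -0.025). List medians were -0.43 with simvastatin and -0.42 without for hypoxia and glycolysis, -0.26 and -0.27 for SREBP2 targets, and 0.33 and 0.43 for interferon response genes. Others lay farther apart, by up to 0.22, at 0.19 with simvastatin and 0.41 without for NF-κB genes, 0.34 and 0.14 for LXR targets, and -0.13 and -0.05 for the integrated stress response. In the integrated stress list 1 gene rose and 16 fell with simvastatin, and 7 rose and 14 fell without it. In the matrix list 12 rose and 5 fell with simvastatin, and 6 rose and 8 fell without it. These differences between lists were not tested.

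**Figure D4:**
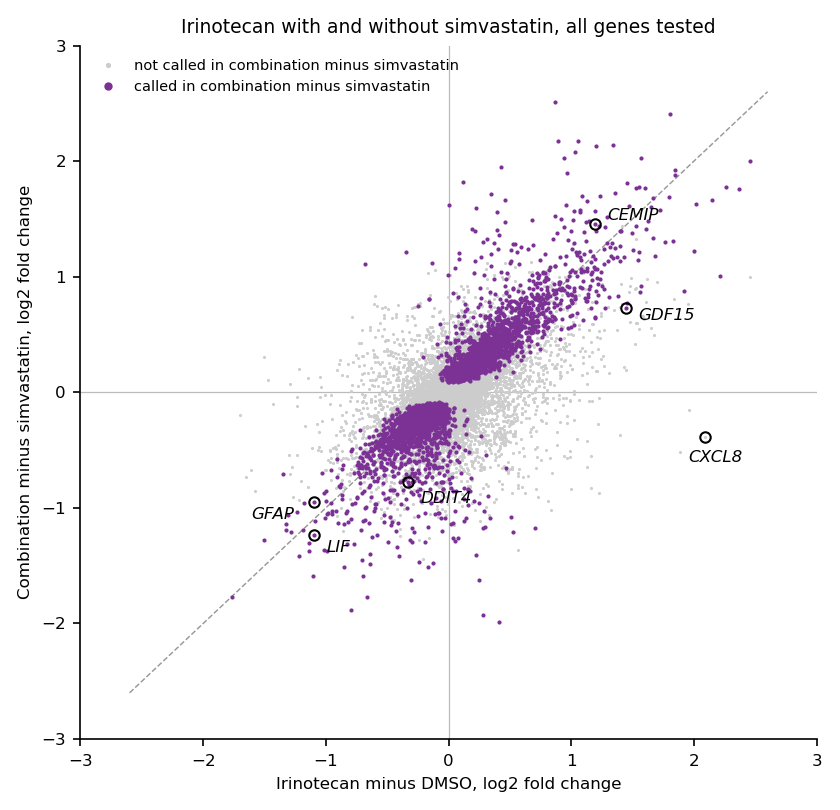
Log2 fold change of each gene tested for the combination minus simvastatin (vertical axis) against irinotecan minus DMSO (horizontal axis), with genes called in the first in purple and the line of equal change dashed. Most called genes lie along the line, and CXCL8 (2.09 without simvastatin, -0.39 with it) lies farthest from it among the genes marked.

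The difference between these effects, tested as an interaction, was called in 2 of 16647 genes (0.012%), with 1000 genes at an unadjusted p under 0.05. The first was CXCL8, the gene of interleukin-8, a chemokine that draws neutrophils (ENSG00000169429, chromosome 4, 73740506 to 73743716, plus strand). It had 27.0, 23.6, 27.9 and 25.6 CPM in the combination against 34.3, 28.6, 28.2 and 45.7 CPM in simvastatin. It had 5.25, 4.83, 3.26 and 4.50 CPM in irinotecan alone against 1.48, 0.870, 1.07 and 0.775 CPM in DMSO. Irinotecan raised it without the statin (2.09 ± 0.29, adjusted p = 8.17e-05), while with the statin it was lower in the combination without being called (-0.39 ± 0.14, adjusted p = 0.0583), and the difference was -2.48 ± 0.33 (adjusted p = 0.037).

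The second was DDIT4, whose values with the statin stand above. It had 45.3, 38.8, 43.7 and 42.5 CPM in irinotecan alone against 57.6, 50.9, 58.0 and 48.0 CPM in DMSO. It fell in both settings, with a log2 fold change of -0.78 ± 0.06 with the statin and -0.33 ± 0.06 without it, and the difference was -0.44 ± 0.08 (adjusted p = 0.037). Both calls depended on which libraries were kept, with 0 genes called in 9 of the 16 fits that left out 1 library. CXCL8 was called in 5 of them, those without simvastatin replicate 2, 3 or 4, irinotecan replicate 3 or DMSO replicate 1, and its adjusted p over the 16 was 1.47e-06 to 0.178. DDIT4 was called in 5 as well, those without simvastatin replicate 2 or 3, irinotecan replicate 2 or DMSO replicate 1 or 3, with an adjusted p of 0.0105 to 0.178. DESeq2 called 5 genes, and edgeR without a filter on low counts called 14, with CXCL8, DDIT4, THBS1 and GDF15 among them in both. With the replicate number as a block in the 12 numbered libraries, 190 genes were called, against 1 in those libraries without the block. The number of genes called thus depended on the model. In the main fit, the next by p were THBS1 (0.31 ± 0.06, adjusted p = 0.095) and GDF15 (-0.71 ± 0.14, adjusted p = 0.145), which were not called. Of the 1512 genes called with simvastatin and not without it, 0 had an interaction that was called, so a call in 1 setting alone does not show a difference between them.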

How the data were processed

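Per the labels, cells were treated with 4 drug settings, 4 libraries each, and in each group 1 library without a number in its title was called replicate 4. The deposited table gives 58243 Ensembl gene IDs with raw counts that the authors left unnormalised. STAR 2.7.1, GRCh38, FastQC and DESeq2 are named in the submitters' processing notes. The sources used here name no counting tool, annotation release or strand setting. Gene positions came from GENCODE 29, which held 57980 of the IDs, and promoter sequences from RefSeq (GRCh38.p14).

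The main fits used edgeR 4.0.16 under R 4.3.3. Genes passing filterByExpr (minimum count 10, minimum total 15) numbered 16647. Libraries were scaled by TMM, and a robust quasi-likelihood model with 1 term per group was fitted to all 16 libraries, which share 1 estimate of the spread. Two-sided F tests gave p-values, adjusted by Benjamini-Hochberg over all genes tested, and a gene was called under 0.05. Standard errors come from the fold change and its F statistic. CPM use TMM-scaled sizes, and marker sums use library totals. Replicate libraries were not duplicates: chi-squared per degree of freedom was 2.7 to 14.4 per pair. The test was checked on simulated counts with known changes.

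The members, the 37 lists with 827 entries and the 8 marker lists were chosen with earlier results of these data known, and lists are described by counts only. Named genes were the 12 highest and 12 lowest called genes averaging 1 or more on the log2 CPM scale, up to 4 with the smallest p per described list, 14 genes named in any case, those called in the interaction, the 6 called genes with the largest difference in CPM, and the 4 with the smallest p over 300 kb. Other list members were named after their values were seen, and results of some genes that the rule takes are not reported here. Alternatives were median-ratio size factors, library sizes alone, DESeq2 1.42.0, other filters and thresholds, the compared groups alone, a replicate block and leaving out each library. Figures used Python 3.11.15 and matplotlib 3.10.9.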

Additional observations from a re-analysis of the deposited data

Results flagged for a closer look

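In 5 of 66 groups of 4 libraries, 1 library stood far from the other 3 by Dixon's test, which chance alone does in about 1 in 20 groups. CEMIP had 70.7 CPM in simvastatin replicate 3, against 55.0 to 56.9 CPM in the other simvastatin libraries. SCD had 2657 CPM in the same library, against 2382 to 2417 CPM in the others. HMGCS1 had 113 CPM in combination replicate 4, against 102 to 103 CPM in the other combination libraries, and NGFR had 13.0 CPM in that library, against 13.5 CPM in the others. TGFBR2 had 111 CPM in combination replicate 3, against 99.6 to 101 CPM in the others. In all 5 the combination and simvastatin libraries still did not overlap.

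The effect of irinotecan differed with and without simvastatin, by the interaction test, in CXCL8 (log2 difference of -2.48) and DDIT4 (-0.44). Neither difference was called in all 16 fits that left out 1 library.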

How the results depend on the processing

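Of the 193 called genes named here, 2 (TOP1 and ABCB1) lost the call when 1 library was left out, and 0 changed direction. With 1 library left out, 3479 to 4371 genes were called, 1905 to 2405 higher and 1574 to 1966 lower, and 0 to 9 in the interaction. An adjusted p under 0.01 gave 2681 genes, 1500 higher and 1181 lower, and 0 in the interaction. A fold of over 1.2 gave 728, 487 higher and 241 lower, and 0 in the interaction, and 88 of the named calls were lost. Library sizes alone gave 3525 higher and 1278 lower. DESeq2 called 4275, and 5 in the interaction. Without a filter on low counts the interaction was called in 14 genes, and TOP1 and ABCB1 were not called. Uncalled genes near 0 turned direction: MDM2 to 0.021 with library sizes alone, and with 1 library left out MDM2 (-0.0545 to 0.00912), MKI67 (-0.035 to 0.0688) and TGFB1 (-0.00819 to 0.0446). Counts of list members changed by over 1.5 times in 71 of 720 cases with 1 library left out and in 123 of 900 under the other settings. Same-numbered combination and simvastatin libraries deviated together only weakly, with correlations of 0.0208, 0.0652 and 0.0626, all under the 0.1 required here to treat the numbers as pairs. Each did correlate best with its own number, a hint from the data and not the design. The irinotecan and DMSO libraries were not part of that check. Among numbered libraries, replicate 2 had the highest mitochondrial share in every group. It was 3.40% in the combination, 4.22% in simvastatin, 4.05% in irinotecan and 4.58% in DMSO. The share of the 50 genes with most counts was also highest in replicate 2 in every group. What the numbers mark is not in the labels. With the replicate number as a block in the 12 numbered libraries, 4839 genes were called and 190 in the interaction, against 3398 and 1 in those libraries without the block. ISG15 (0.31, adjusted p = 0.133) and ABCB1 (0.88, adjusted p = 0.116) were not called with the block, nor SMAD3 (0.12, adjusted p = 0.0629) and ABCB1 (0.90, adjusted p = 0.156) in those libraries without it. Except where a setting tests fewer genes or libraries, the cause was not tested. Depth limits genes under about 1 CPM, such as ABCB1, SMAD7 and INHBA, whose standard errors were 0.28 to 0.37.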

Other observations

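Genes of axon guidance, which steer growing nerve fibres and also act in glioma invasion, moved in both directions, with 10 of 40 higher and 12 lower in the combination than in simvastatin (11 and 10 with library sizes alone). Beside SEMA5B and PLXNA4, the repellent gene SLIT3 (-0.35 ± 0.06) and the netrin gene NTN1 (-0.24 ± 0.05) fell. SEMA7A, a membrane-anchored semaphorin, averaged 11.5 ± 0.614 CPM in the combination and 6.18 ± 0.552 CPM in simvastatin (SD, n = 4 each) and rose (0.89 ± 0.10), as did SEMA6B (0.32 ± 0.06) and the ephrin receptor genes EPHB2 (0.35 ± 0.04) and EPHA4 (0.29 ± 0.05).

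Of 19 genes of potassium channels and their partners, 4 rose and 4 fell, where 13.9% of all genes rose and 11.7% fell. KCNN4, a calcium-activated channel, averaged 104 ± 3.04 CPM in the combination and 143 ± 5.57 CPM in simvastatin (SD, n = 4 each) and fell (-0.46 ± 0.05), as did the inward rectifier gene KCNJ2 (-0.28 ± 0.06), and the leak channel gene KCNK6 rose (0.73 ± 0.15). Of 12 histone genes detected in this poly(A) RNA, 3 fell and 0 rose, HIST1H1C (-0.47 ± 0.09) beside H1F0. Of 15 heat shock genes, 2 were higher and 2 lower, near the shares of all genes, among them HSPH1 (0.17 ± 0.04) and HSP90AB1 (-0.14 ± 0.03). Of 16 snoRNA hosts and abundant long non-coding RNAs, SNHG3 was called and was lower (-0.36 ± 0.08).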
